A study of Arabidopsis thaliana with 28 samples.

Results

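The chloroplast of Arabidopsis thaliana keeps a small genome of its own, and 69 of the 22746 probe sets on the array each measured 1 gene of that genome. The genes were found through the platform annotation, which names 1 gene for the probe set, and a gene table that places this gene on the plastid genome. Mitochondrial genes were left out. Of the 78 distinct protein-coding symbols of the plastid genome in the gene table, 9 were not analysed here. The 69 genes fell by symbol into 45 photosynthesis genes, 20 genes of the plastid's own genetic system (15 for ribosomal proteins, 4 for RNA polymerase subunits, and matK) and 4 others (accD, ccsA, cemA and clpP). A log2 signal over 4 in at least 2 of the 28 arrays was required for testing, and 66 of the 69 genes passed, being 44 photosynthesis genes, 18 genetic-system genes and the 4 others. The 3 that did not pass lay near the floor of the data, ndhF between 2.16 and 2.41, rpoB between 2.76 and 3.44 and rps14 between 2.13 and 3.78.

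Chloroplast genes are transcribed by a bacterial-type RNA polymerase, whose core subunits are encoded by rpoA, rpoB, rpoC1 and rpoC2 in the plastid itself, and by phage-type polymerases encoded in the nucleus. In general the bacterial-type enzyme serves mainly the photosynthesis genes, and the phage-type enzymes serve housekeeping genes such as the rpoB group, accD and clpP. Many of the genes are transcribed together in long units that nuclear-encoded proteins then cut, edit and protect, so transcript levels in the plastid reflect RNA stability as well as transcription.

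The arrays were single-colour oligonucleotide arrays of RNA from the whole aerial part of Col-0 seedlings, raised at 22°C for 12 days in continuous light near 100 µmol photons (per m2 and s). WT kept at 4°C for 24 h, under a lower light of about 30 µmol, was compared with WT of the same experiment at 22°C, so cold and dimmer light came together. Of the 11 lines at 22°C, each overexpressed 1 transcription factor (the cytokinin response factors CRF2 and CRF3, DEAR1, ERF5, RAV1, HSFC1, MYB44, MYB73, CZF1, ZAT10 or the factor labelled ZF) and was compared with a further WT group at 22°C that is labelled as the lines' control. The promoters of the transgenes and the number of independent lines are not given in the sources used here. Each of the 14 groups had 2 arrays, labelled as biological replicates with nothing further on their origin, so p-values measure the spread between these arrays. For each probe set 1 spread served all 14 groups, with 14 residual degrees of freedom.

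All values below are deposited log2 signals, on which a difference of 1 is a change of 2-fold, and ± gives the SE of the fitted difference. A gene is said to have risen or fallen only where limma's adjusted p was below 0.05. The labels name the amplification kit without saying how it was primed, so the share of each transcript that reached the array is unknown, and the genes were compared between arrays but not with each other. Fewer chloroplasts or green cells in a sample and less RNA per chloroplast cannot be told apart in such whole-tissue RNA. Of 8 green-tissue marker genes and 3 flower markers, 0 were named by the annotation. Of 8 root markers, PYK10 and EXPA7 were named. Between CRF3 and the lines' control they were not called (adjusted p = 0.405 and 0.537, limma), and in CZF1 PYK10 was called, as given with the results of that line.

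The array medians fell into 2 sets that the labels do not explain. The 6 arrays of CZF1, WT at 4°C and WT of the same experiment had medians from 5.77 to 5.84, and the other 22 arrays had medians from 5.33 to 5.48. The comparison of cold with warm WT lay within the first set and those of 10 lines within the second. CZF1 and its labelled control lay in different sets, so the set and the line cannot be told apart in that comparison. The replicate 2 array of CRF3 also stood apart: it held the lowest of all 28 values for 46 of the 66 genes, among them 1 tie. How often this was so over all probe sets was not counted.

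**Figure D1:**
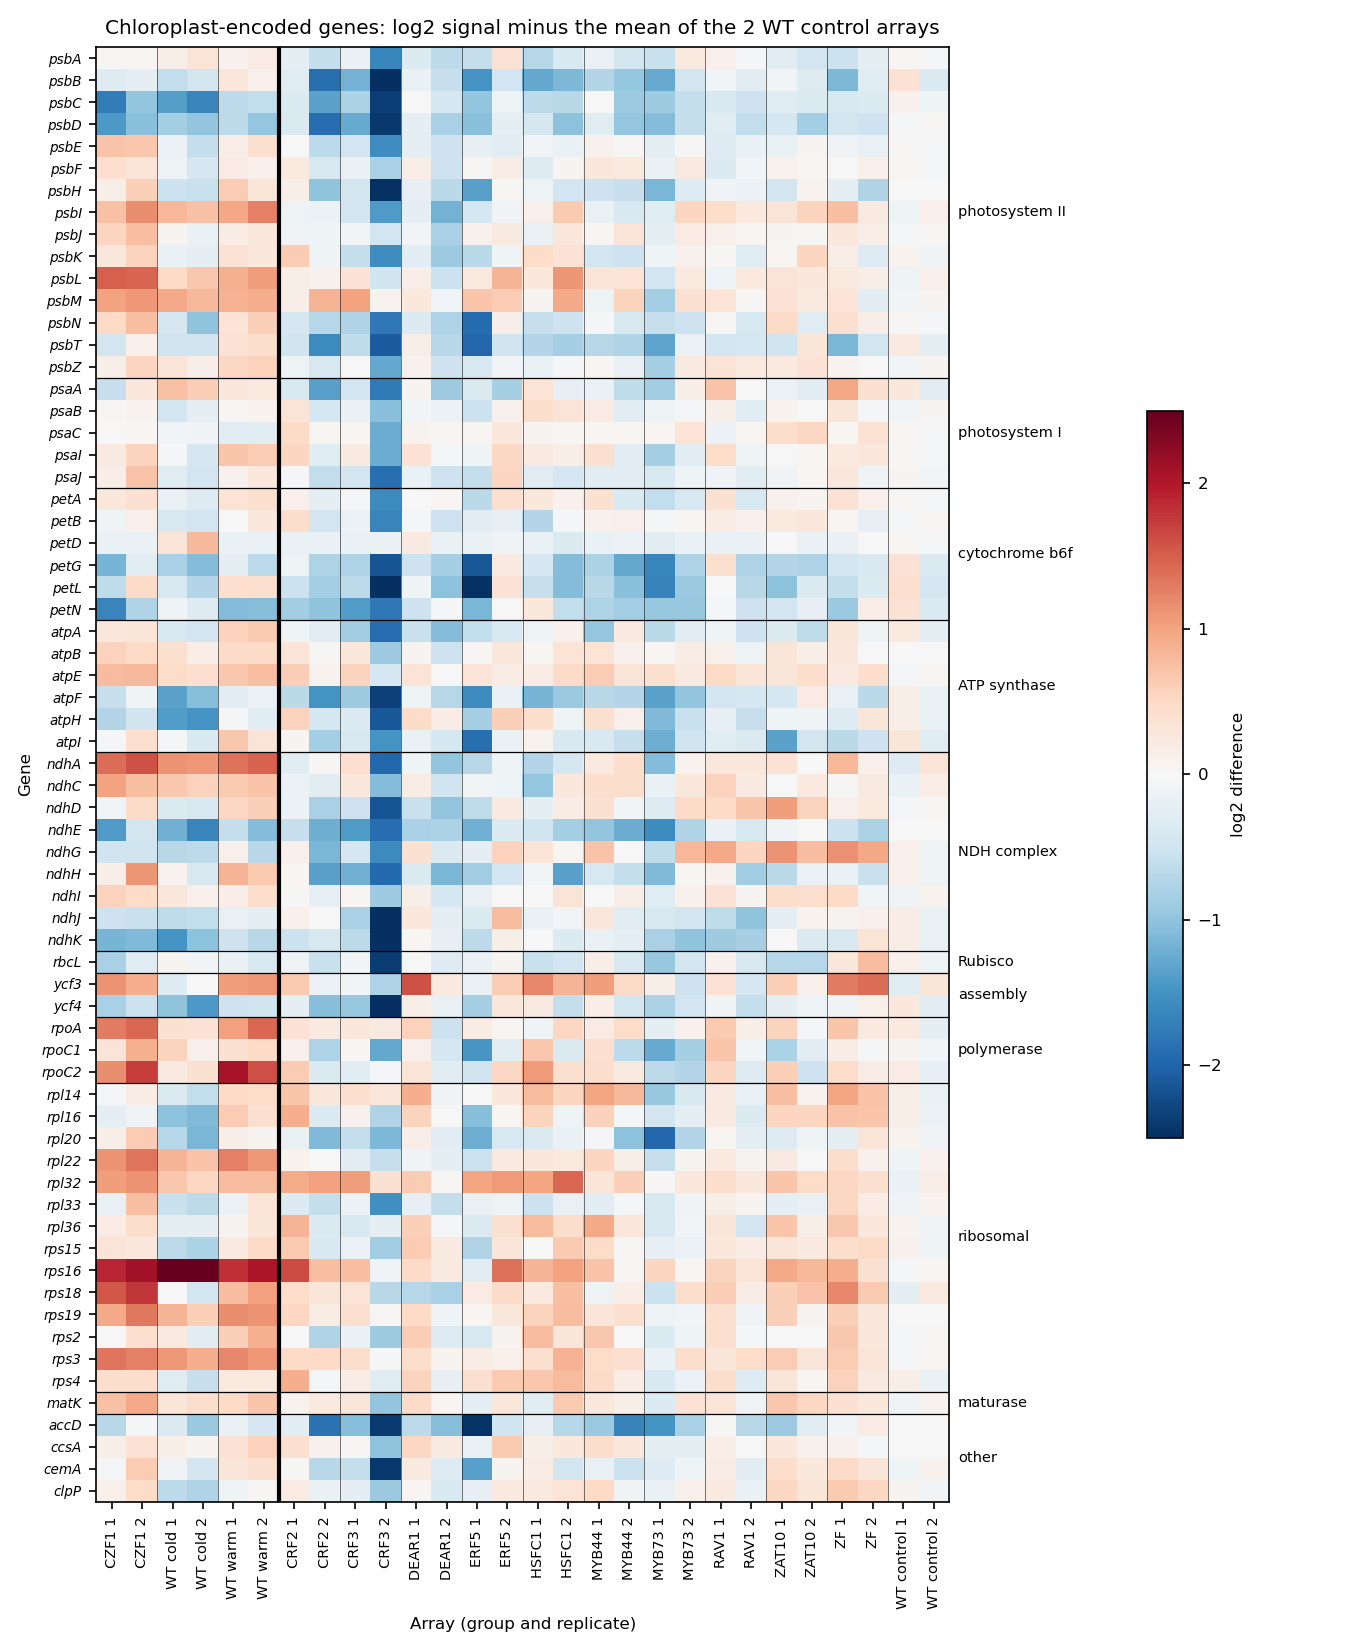
Each row is 1 chloroplast gene and each column 1 array; colour gives the log2 signal minus the mean of the 2 arrays of the lines' WT control, and the heavy line separates the 6 arrays of higher median from the other 22. The CRF3 replicate 2 column is blue over nearly all photosynthesis genes, and rps16, rpl22 and rps3 are red in the 6 arrays on the left.

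The genes differed in how far their signal moved over the 28 arrays. The distance between a gene's lowest and highest array had a median of 2.46 over the photosynthesis genes and 1.93 over the genetic-system genes, and without the CRF3 arrays these medians were 1.81 and 1.77. Among the photosystem II genes, psbA (the D1 reaction-centre protein) lay between 6.99 and 8.99 with a median of 8.43, and its lowest array was CRF3 replicate 2. The gene for the partner protein D2, psbD, lay between 6.54 and 8.99 (median 8.23), with both arrays of the lines' WT control at the top. The widest movement of any chloroplast gene was that of psbB (the antenna protein CP47), between 4.87 and 8.63 (median 7.80). The least moving gene was petD (subunit IV of the cytochrome b6f complex), between 3.56 and 4.73 (median 3.76), whose signal stayed near the limit for testing. Among the photosystem II genes psbM had the highest mean signal and lay between 11.37 and 13.29 (median 12.57), and psbT had the lowest and lay between 4.52 and 7.03 (median 6.10).

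For the photosystem I reaction-centre genes, psaA lay between 5.32 and 8.07 (median 6.94) and psaB between 11.69 and 13.17 (median 12.73). The iron-sulphur subunit gene psaC, the dimmest of this class, lay between 3.66 and 5.42 (median 4.95), and many of its arrays read exactly 4.95. All 3 had their lowest array in CRF3 replicate 2. Elsewhere in the electron transport chain, petB (cytochrome b6) lay between 10.20 and 12.29 (median 11.84), again with CRF3 replicate 2 at the bottom. Among the ATP synthase genes atpB (the beta subunit) lay between 12.37 and 13.87 (median 13.45), atpE (the epsilon subunit) between 13.02 and 14.28 (median 13.83) and atpI between 4.46 and 7.01 (median 5.96). In the NDH complex, which carries electrons around photosystem I, ndhI lay between 12.46 and 13.93 (median 13.46) and ndhG between 3.09 and 5.82 (median 4.77). The photosystem I assembly genes ycf3 and ycf4 lay between 8.62 and 10.98 (median 9.82) and between 3.92 and 7.09 (median 6.34). The gene for the large subunit of Rubisco, rbcL, lay between 8.28 and 11.43 (median 10.42). Of these, atpI was lowest in ERF5 replicate 1, and the others had their lowest array in CRF3 replicate 2.

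The lowest array was CRF3 replicate 2 for 38 of the 44 photosynthesis genes, and for 5 of the 18 genetic-system genes (rps15, rps2, rpl33, matK and, in a tie, rpl22). Among the polymerase subunit genes, rpoA lay between 10.75 and 12.73 (median 11.56), rpoC1 between 7.66 and 10 (median 9.13) and rpoC2 between 6.28 and 9.08 (median 7.29). Their lowest arrays were DEAR1 replicate 2, ERF5 replicate 1 and MYB73 replicate 2. Of the ribosomal protein genes tested, rps4 had the highest mean and lay between 11.76 and 13.25 (median 12.57), and rps16 had the lowest and lay between 5.29 and 8.49 (median 6.34). The maturase gene matK, whose product helps to splice plastid introns, lay between 9.90 and 11.83 (median 11.17). Among the 4 other genes, ccsA (a factor for attaching haem to cytochromes c) lay between 10.67 and 12.34 (median 11.84), clpP (a protease subunit) lay between 10.55 and 12.12 (median 11.53) and accD (a subunit of acetyl-CoA carboxylase) between 5.81 and 8.46 (median 7.59). For ccsA, clpP and matK the lowest array was again CRF3 replicate 2, and for accD it was ERF5 replicate 1.

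In WT after 24 h at 4°C, 8 of the 66 chloroplast genes fell, and most others leaned the same way. The fit called 1 gene higher, petD, which could be tested only because of its cold arrays. Over all 15916 probe sets tested 13.1% fell and 14.1% rose. In this fit the share of chloroplast genes that fell was thus near the background, and the share called higher was below it. The count depended on the spread used: 19 fell with the spread taken without CRF3, and 25 in a fit of only the 2 groups. The shares of all probe sets that fell in those fits are not given here. The differences were below 0 for 59 of the 66, with a median of -0.54, against a median of -0.03 over all probe sets. Falls were counted for 6 of 18 genetic-system genes (median -0.69) and for 2 of 44 photosynthesis genes (median -0.52). Both cold arrays lay below both warm arrays for 15 of the 18 genetic-system genes, for 33 of the 44 photosynthesis genes and for 3 of the 4 others. The share of all probe sets separated in this way was not counted, so these counts have no background. The class medians thus differed by 0.18 in the cold, a difference that was not tested. Taken array by array against the lines' control, the photosynthesis minus genetic-system difference was -0.38 and -0.34 in the cold. In the warm it was -0.37 and -0.48, so the groups overlapped.

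The ribosomal protein gene rpl16 had signals of 9.95 and 9.86 in the cold arrays, against 11.60 and 11.37 in the warm ones. The cold arrays lay far below the warm ones, with a difference of -1.58 ± 0.39 (limma adjusted p = 0.0057), and this was the only one of the 9 calls that held whichever of the 4 arrays was left out. Among the other ribosomal genes, rps18 had 6.71 and 6.25 in the cold and 7.50 and 7.75 in the warm (-1.15 ± 0.33, adjusted p = 0.0152). For rps15 the cold values were 6.05 and 5.92 and the warm values 6.93 and 7.21 (-1.08 ± 0.33, adjusted p = 0.0207). For rpl14 they were 10.47 and 10.22 in the cold and 11.32 and 11.29 in the warm (-0.96 ± 0.29, adjusted p = 0.0177). In each of these genes the groups did not overlap.

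Both polymerase genes that fell encode subunits of the bacterial-type enzyme. For rpoC2 the cold arrays read 7.23 and 7.40 and the warm arrays 9.08 and 8.62 (-1.54 ± 0.41, adjusted p = 0.00902). For rpoA the cold arrays read 11.67 and 11.65 and the warm arrays 12.31 and 12.73 (-0.86 ± 0.31, adjusted p = 0.0472). The direction of these 2 genes rested on the WT they were set against. Against the lines' WT control, which lies in the other set of array medians and whose arrays read 7.22 and 6.80 for rpoC2 and 11.54 and 11.04 for rpoA, the same cold arrays lay 0.31 and 0.37 higher, and of the 8 falls only that of rpl16 kept its call. The third polymerase gene tested, rpoC1, was at 9.67 and 9.24 in the cold and 9.49 and 9.62 in the warm, and its groups overlapped.

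Of the photosynthesis genes, ycf3, whose product helps to assemble photosystem I, had 9.07 and 9.39 in the cold and 10.43 and 10.47 in the warm (-1.22 ± 0.41, adjusted p = 0.0351). The alpha subunit gene of ATP synthase, atpA, had 9.34 and 9.25 in the cold and 10.30 and 10.37 in the warm (-1.04 ± 0.34, adjusted p = 0.0288). In both genes the cold arrays lay below the warm ones. The gene called higher, petD, had 4.25 and 4.73 in the cold and 3.76 and 3.76 in the warm, a difference of 0.73. It passed the limit for testing through 3 arrays over 4, namely both cold arrays and DEAR1 replicate 1 (4.14), and its 2 warm arrays held the same low value. A gene that is tested because it is high in one group had to differ there, so this call is given as a description.

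Several of the best known chloroplast genes were not called in the cold, though the cold and warm arrays of some did not overlap. The signal of psbA was 8.78 and 8.96 in the cold and 8.73 and 8.83 in the warm, with overlapping groups. Likewise psbD was at 8.11 and 7.98 in the cold and 8.31 and 8.0 in the warm, again overlapping. For rbcL the cold arrays were at 10.72 and 10.59 and the warm arrays at 10.49 and 10.26, above the warm but not past the threshold (0.28 ± 0.45). Both photosystem I core genes were uncalled, psaA at 7.83 and 7.71 in the cold and 7.38 and 7.33 in the warm, and psaB at 12.28 and 12.52 in the cold and 12.76 and 12.82 in the warm. The largest uncalled differences above 0 were those of petN (0.86 ± 0.40) and rps16 (0.82 ± 0.41), and the largest below 0 was that of atpH (-1.26 ± 0.47). Of petB, atpB, accD, clpP and matK the cold arrays read 11.45 and 11.39, 13.68 and 13.45, 7.91 and 7.33, 10.82 and 10.72, and 11.18 and 11.32. Their warm arrays, in the same order of genes, read 11.85 and 12.12, 13.77 and 13.76, 8.08 and 7.84, 11.37 and 11.50, and 11.38 and 11.58, and none of the 5 passed the threshold.

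**Figure D2:**
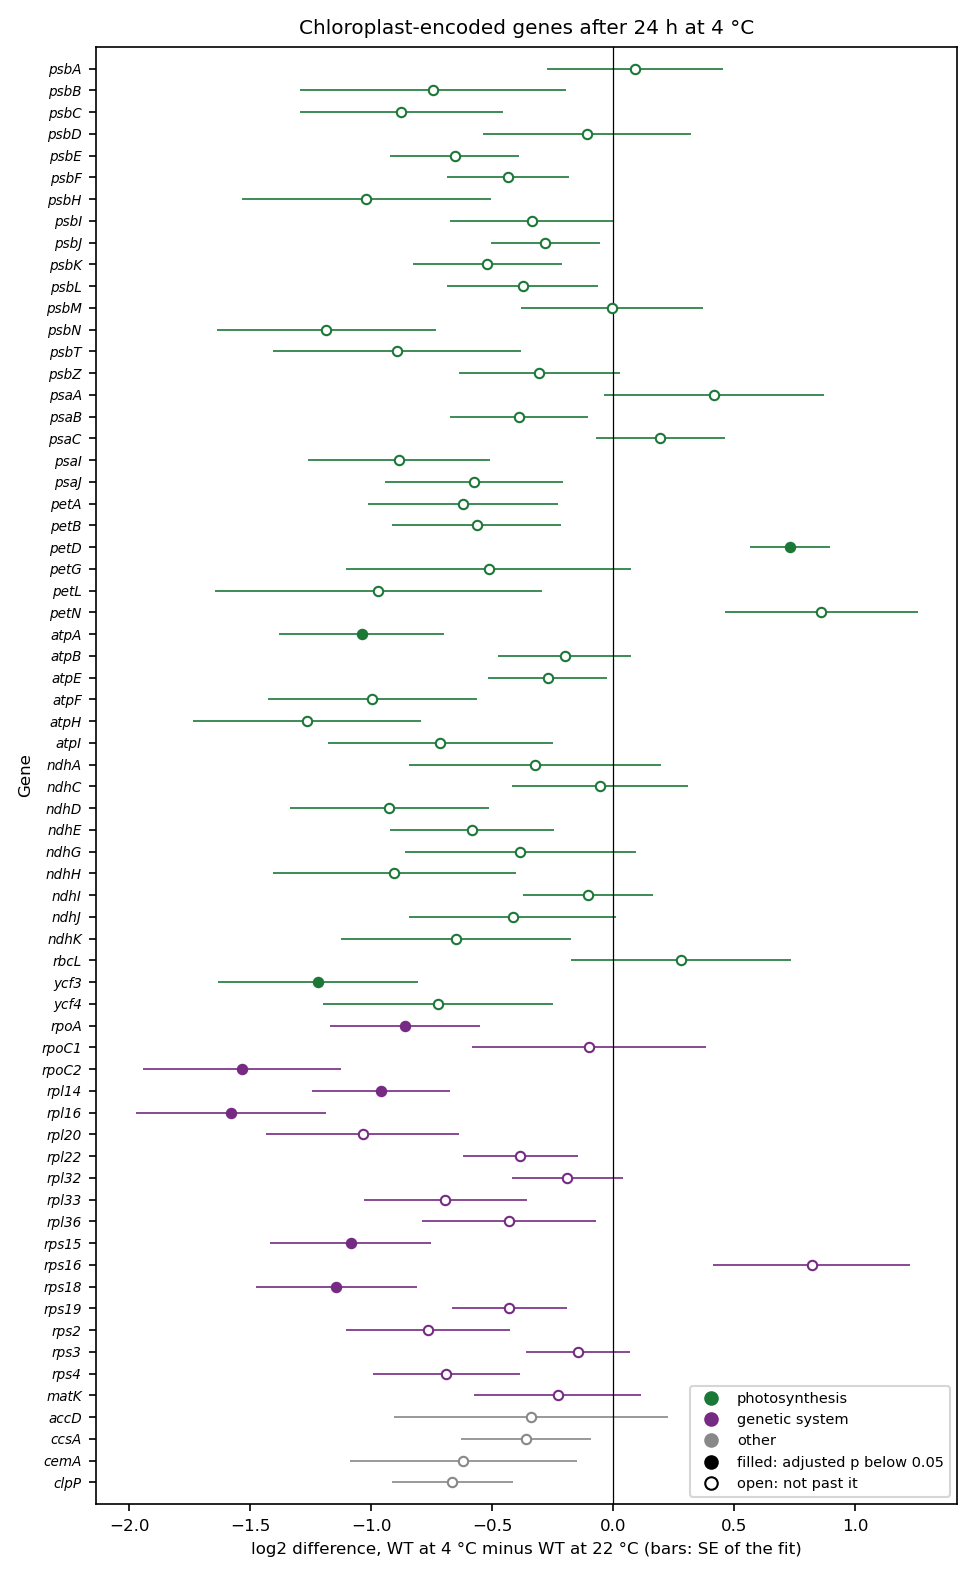
Each point is the log2 difference of 1 chloroplast gene between WT at 4°C and WT at 22°C, with its SE from the fit; colours mark the classes and filled points the genes past the threshold. Of 66 points, 59 lie left of 0, and the filled ones are 8 falls and petD, the one gene called higher.

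Nuclear genes for parts of the same complexes gave a similar lean in the cold. Of 11 such genes named on the array, 1 fell (LHCB4.2, a light-harvesting protein, -1.98) and 0 rose, with a median of -0.60. Of 5 mitochondrial genes tested, 0 passed the threshold, with a median of -0.39. Of a list of 19 nuclear loci drawn up for plastid transcription, 1 was named on the array, AT5G15700, with 4.34 and 4.68 in the cold, against 2.97 and 2.69 in the warm. Its other arrays lay between 2.69 and 2.97, near the floor, so it was tested only through its cold arrays, and the values are given as a description. All 12 plastid RNA-processing genes of a further list were unnamed here.

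The line overexpressing CRF3, a factor of the cytokinin response factor group, had the chloroplast genes furthest below the lines' control by their median difference (-0.79). In it 12 of 66 fell and 0 rose, against 2.81% of all probe sets that fell and 5.79% that rose, so that falls were more frequent among the chloroplast genes than over the array. All 12 were photosynthesis genes (5 of photosystem II, 3 of the NDH complex, 2 of ATP synthase, petN and ycf4), and 0 of the 18 genetic-system genes passed the threshold. At an unadjusted p below 0.05, 2 of the 18 were lower and 1 was higher, against 13.2% and 16.6% of all probe sets, so the share that was lower was near the background. The median difference was -1.05 over the photosynthesis genes, -0.25 over the genetic-system genes and -1.04 over the 4 others, and 0.00 over all probe sets.

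The CRF3 result rested on 1 of its arrays. For psbB the CRF3 arrays read 7.08 and 4.87, against 8.63 and 7.90 in the lines' control (-2.29 ± 0.55, adjusted p = 0.0212). The second CRF3 array lay far below the first, and both lay below the control arrays. The assembly factor gene ycf4 read 5.86 and 3.92 in CRF3 and 7.06 and 6.55 in the control (-1.92 ± 0.47, adjusted p = 0.0237). The same order of arrays held for the NDH subunit genes ndhK, with 8.93 and 6.51 in CRF3 and 9.77 and 9.39 in the control (-1.86 ± 0.47, adjusted p = 0.0266), and ndhJ, with 8.81 and 6.82 in CRF3 and 9.82 and 9.44 in the control (-1.82 ± 0.43, adjusted p = 0.0194). A further subunit gene of that complex, ndhE, read 6.71 and 6.23 in CRF3 and 8.11 and 8.14 in the control, so that here the 2 CRF3 arrays lay close together. For psbD the CRF3 arrays read 7.71 and 6.54, against 8.93 and 8.99 in the control (-1.84 ± 0.43, adjusted p = 0.0192). The other 6 genes that fell were atpF, petN, psbC, atpA, psbK and psbE, with differences from -1.61 to -1.01.

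Without the replicate 2 array of CRF3, 0 of the 66 genes were called, and without the replicate 1 array 44 were. Without either one of the 2 control arrays 0 of the 12 were called, and a fit of only these 2 groups called 0. Setting the same CRF3 arrays against the other WT, which lies in the other set of array medians, gave 45 calls. Against that WT, falls were also called in lines that had 0 against their own control. They numbered 20 in MYB73, 16 in ERF5, 15 in DEAR1 and 11 in CRF2. The shares of all probe sets called against that WT are not given here. Array by array, the median over the photosynthesis genes was -0.45 in CRF3 replicate 1 and -1.72 in replicate 2, relative to the mean of the control arrays. The corresponding medians over the genetic-system genes were 0.15 and -0.44. Of the 44 photosynthesis genes, 31 lay below both control arrays in replicate 1 and 43 in replicate 2. Of the 18 genetic-system genes 7 and 12 did. Over all probe sets such genes were not counted, so these counts and the like ones below have no background. The values of replicate 1 were not particular to CRF3. Single arrays of lines without a called chloroplast gene had photosynthesis medians of -0.65 (MYB73 replicate 1), -0.61 (ERF5 replicate 1), -0.52 (DEAR1 replicate 2) and -0.46 (CRF2 replicate 2), with 38, 35, 35 and 36 of the 44 genes below both control arrays.

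Some other measures also moved in the CRF3 arrays, and others moved little. The median over the 11 nuclear photosynthesis genes, relative to the control mean, was -0.12 in replicate 1 and -1.99 in replicate 2. For NdhN, a nuclear-encoded NDH subunit, the CRF3 arrays read 8.43 and 5.19 and the control arrays 8.61 and 8.82. The 5 mitochondrial genes had medians of -0.13 and -0.18. The difference between 3′ and 5′ probe sets of GAPDH, which widens as RNA breaks down, was 2.04 and 1.81 in CRF3 and 0.75 and 0.91 in the control. It was 1.86 and 1.15 in CRF2, and 1.11 and 1.83 in WT at 22°C in the cold experiment. The same difference was 1.41 and 1.74 in CRF3 and 1.27 and 1.20 in the control for ubiquitin, and 5.41 and 5.36 in CRF3 and 5.42 and 5.4 in the control for actin. The 25S rRNA signal was 9.98 and 11.47 in CRF3 and 10.23 and 10.13 in the control. Higher values than in CRF3 were found elsewhere, with a 25S rRNA signal of 11.77 in ZF replicate 1 and a ubiquitin difference of 1.78 in DEAR1 replicate 2. The part of RNA quality in the CRF3 result was not tested.

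**Figure D3:**
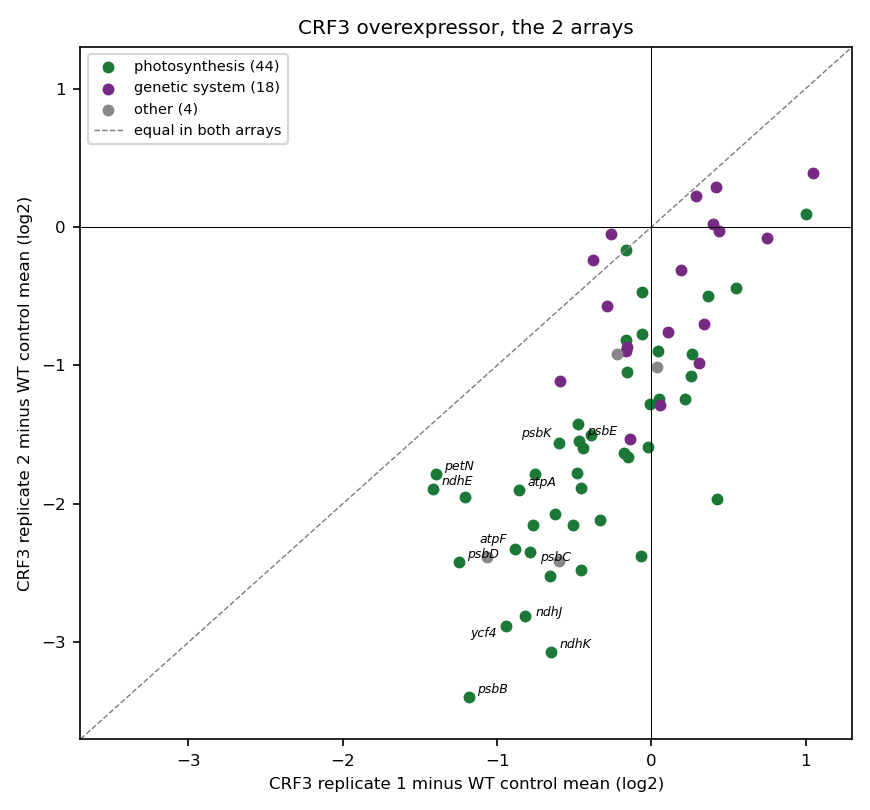
Each point is 1 chloroplast gene, with its log2 difference from the mean of the lines' WT control in CRF3 replicate 1 (horizontal) and replicate 2 (vertical); the 12 genes that fell are named. Nearly all points lie below the dashed line of equality, and most genetic-system genes lie nearer to 0 than the photosynthesis genes.

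In the line overexpressing HSFC1, a heat shock factor, 1 of 66 chloroplast genes passed the threshold, against 11.8% of all probe sets. This was rpl32, a ribosomal protein gene, with 11.62 and 12.07 in HSFC1 and 10.47 and 10.81 in the lines' control (1.21 ± 0.23, adjusted p = 0.00155). Both HSFC1 arrays lay above both control arrays, and the call held whichever of these 4 arrays was left out. It was lost against the other WT, whose arrays read 11.41 and 11.44 (0.42, adjusted p = 0.141), and in a fit of only the 2 groups (adjusted p = 0.0583). The median difference was -0.14 over the photosynthesis genes and 0.51 over the genetic-system genes. Both HSFC1 arrays lay above both control arrays for 10 of the 18 genetic-system genes and below them for 2. Of the 44 photosynthesis genes, 8 lay above in this way and 16 below. The share of all probe sets separated in this way was not counted. The GAPDH difference was 1.63 and 1.78 in HSFC1, against 0.75 and 0.91 in the control. Its part was not tested.

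In 8 lines 0 of the 66 genes passed the threshold in limma. The share of all probe sets called was 0% in CRF2 and MYB73, 0.00628% in RAV1, 0.0817% in ERF5, 0.251% in DEAR1, 1.69% in MYB44, 4.66% in ZAT10 and 7.12% in ZF. At an unadjusted p below 0.05, the chloroplast genes counted 7 in CRF2, 6 in MYB73, 0 in RAV1, 5 in ERF5, 4 in DEAR1, 3 in MYB44, 3 in ZAT10 and 6 in ZF. Over all probe sets that threshold was passed by 6.19% in CRF2, 2.81% in MYB73, 4.61% in RAV1, 9.06% in ERF5, 9.36% in DEAR1, 14.6% in MYB44, 19.1% in ZAT10 and 22.3% in ZF. Read against these, the share of the 66 chloroplast genes lay below that of all probe sets in RAV1, DEAR1, ERF5, MYB44, ZAT10 and ZF and above it in MYB73 and CRF2, a difference that was not tested. In ZF all 6 were higher than the control and in MYB73 all 6 were lower. The 4 largest single differences in these lines were those of accD in ERF5 (-1.48), ycf3 in ZF (1.35), and rpl20 (-1.34) and petL (-1.30) in MYB73.

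CZF1, a zinc finger factor, had 15 chloroplast genes higher and 4 lower than the lines' control, against 32.4% and 3.85% of all probe sets. The share of chloroplast genes that rose was thus below the background, and the share that fell was a little above it. The median over all probe sets was itself 0.43 higher in CZF1, since the 2 groups lay in different sets of array medians. The split of the calls rested on the scaling and on single arrays. It became 5 higher and 6 lower after median centring, 8 and 5 after quantile normalization, and 9 and 0 without CZF1 replicate 1 or without replicate 1 of the control. The root marker PYK10 read 13.09 and 13.24 in CZF1 and 11.91 and 12.22 in the control (1.1 ± 0.3, adjusted p = 0.00889), and EXPA7 read 3.12 and 4.31 in CZF1 and 4.72 and 4.74 in the control, without a call. The part of root tissue in the CZF1 values was not tested. The 5 largest rises were those of rps16, with 7.48 and 7.67 in CZF1 and 5.53 and 5.63 in the control, rps18, with 8.27 and 8.51 in CZF1 and 6.47 and 6.97 in the control, ndhA (1.49), psbL (1.48) and rpoC2 (1.44). In the 3 last the CZF1 arrays read 12.28 and 12.47, 10.12 and 10.08, and 8.17 and 8.73, against control arrays of 10.56 and 11.21, 8.50 and 8.74, and 7.22 and 6.80. The 4 falls were those of psbC, with 9.88 and 10.63 in CZF1 and 11.73 and 11.51 in the control, psbD, with 7.53 and 7.92 in CZF1 and 8.93 and 8.99 in the control, petN, with 6.13 and 7.02 in CZF1 and 8.13 and 7.42 in the control, and ndhE, with 6.70 and 7.67 in CZF1 and 8.11 and 8.14 in the control. In each of these 9 genes the arrays of the 2 groups did not overlap.

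Against the WT of the cold experiment at 22°C, whose arrays belong to the same set of medians, 0 of the 66 genes were called in CZF1 and 1 had an unadjusted p below 0.05, against 1.04% and 11.2% of all probe sets. PYK10 lay 1.07 above that WT (adjusted p = 0.0948). The median difference was then -0.12 over the photosynthesis genes and 0.13 over the genetic-system genes, and rpoC2 lay 0.40 below that WT.

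The 2 WT groups at 22°C differed from each other in many of the same genes. Of the 66, 12 were higher and 1 (petN) was lower in the WT of the cold experiment than in the lines' control, against 30.2% and 3.74% of all probe sets, so both shares were below the background. The direction of these counts turned with the scaling, to 3 higher and 5 lower after median centring, and it was 5 higher and 2 lower after quantile normalization. The genes higher in it were 8 of the 18 genetic-system genes and 4 of the 44 photosynthesis genes, and the medians of the 2 classes were 0.67 and 0.28, against 0.42 over all probe sets. The ribosomal gene rps16 read 7.40 and 7.63 in WT of the cold experiment, against 5.53 and 5.63 in the lines' control (1.94 ± 0.41, adjusted p = 0.0022). For rpoC2 the values were 9.08 and 8.62 and, in the lines' control, 7.22 and 6.80 (1.84 ± 0.41, adjusted p = 0.0032). Next came ndhA (1.42), rpoA (1.23) and rpl22 (1.17). These differences arose between groups of the same genotype, temperature and light as labelled.

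Taken gene by gene against the lines' control, the photosynthesis genes had the lower median in each array outside it. For each array, each gene's difference from the mean of the 2 control arrays was taken, and the median over the genetic-system genes was subtracted from the median over the photosynthesis genes. This value was below 0 in all 26 arrays outside the control, from -1.28 in CRF3 replicate 2 to -0.04 in ZAT10 replicate 2, with a median of -0.43. Without CRF3 the remaining 24 arrays lay between -0.69 and -0.04. The WT arrays of the cold experiment were among them, at -0.38 and -0.34 in the cold and -0.37 and -0.48 in the warm. The 2 control arrays lay at 0.01 and -0.01, around 0 by construction.

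By group, the difference of the 2 class median changes from the lines' control, computed from the group means, ran from -0.81 in CRF3 to -0.17 in MYB73. All of the comparisons with the lines' control share its 2 arrays, so their common sign is not that many separate results, and it was seen in WT as well as in the lines. The GAPDH difference moved with it. In the 13 of the 26 arrays with the higher GAPDH difference (1.31 to 2.04) the class difference lay between -1.28 and -0.19 with a median of -0.57, and in the 13 with the lower one (0.86 to 1.3) between -0.54 and -0.04 with a median of -0.34. The control arrays, at 0.75 and 0.91, were among the lowest. The medians of the ubiquitin difference were 1.52 and 1.31 in these 13 and 13 arrays, and those of actin 5.36 and 5.31. The part of RNA quality in the class difference was not tested. Photosynthesis and genetic-system medians were -0.29 and 0.26 in CRF2, -0.27 and 0.18 in DEAR1, -0.24 and 0.02 in ERF5, and -0.13 and 0.33 in MYB44. They were -0.40 and -0.23 in MYB73, -0.15 and 0.16 in RAV1, -0.04 and 0.30 in ZAT10, 0.06 and 0.46 in ZF, and 0.20 and 0.73 in CZF1. MYB73 was the only one of the lines besides CRF3 with both medians below 0, and ZF and CZF1 were the only ones with both above 0.

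**Figure D4:**
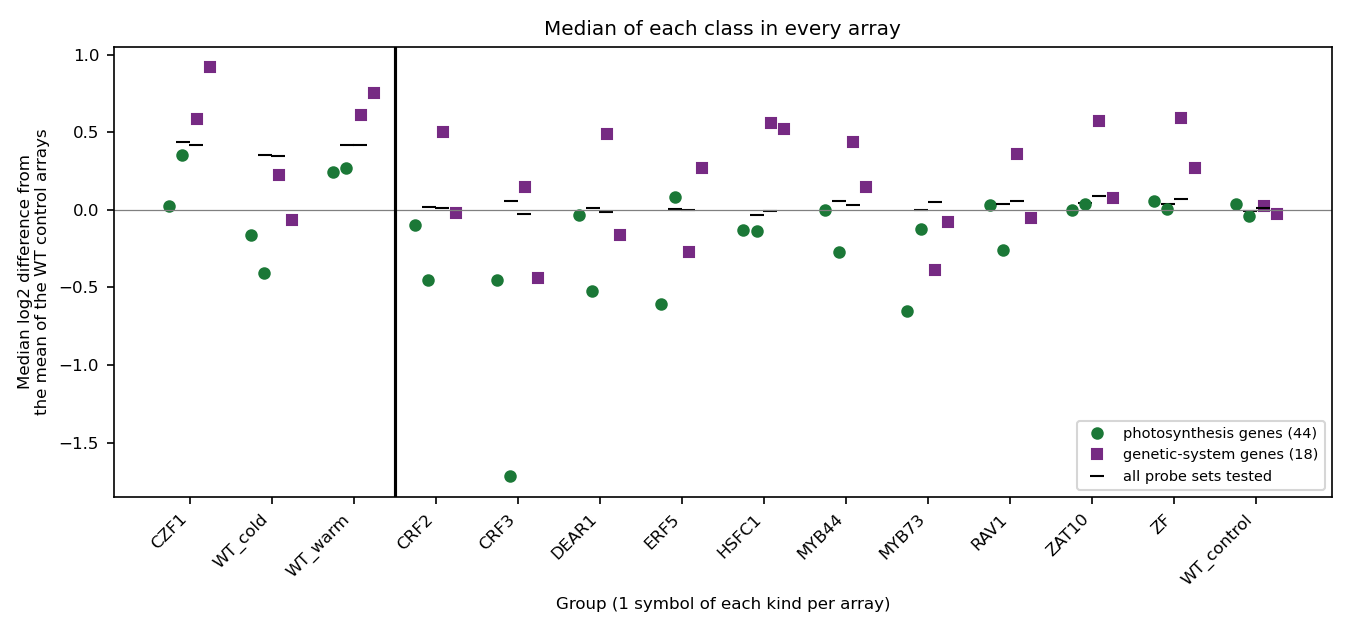
For each array, circles give the median log2 difference from the lines' WT control over 44 photosynthesis genes, squares that over 18 genetic-system genes and dashes that over all probe sets tested; the line separates the 6 arrays of higher median. In each array outside the control the circle lies below its square, by 1.28 in CRF3 replicate 2 and by 0.04 in ZAT10 replicate 2.

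Within the genetic system, the polymerase and ribosomal genes did not always keep together. Over the 3 polymerase genes and the 14 ribosomal genes, the median difference was 1.37 and 0.41 in CZF1, and 1.23 and 0.63 in WT at 22°C of the cold experiment, each against the lines' control. In the cold it was -0.86 and -0.69 against WT at 22°C. In MYB73 it was -0.69 and -0.23, and in HSFC1 0.21 and 0.58. With 3 polymerase genes, each such median is the value of 1 gene.

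The chloroplast genes moved together between arrays of the same group. In 8 of the 14 groups at least 80% of the 66 genes were higher in the same one of the 2 arrays. These were CRF2, CRF3, DEAR1, ERF5, MYB73 and RAV1, and, only just past that limit at 80.3%, WT at 4°C and CZF1. Over all probe sets the largest such share was 58.5%. Arrays of near equal median can hardly reach 80% over all probe sets, and other sets of genes were not counted. The replicates differed most in CRF3, where 63 of the 66 genes were higher in replicate 1 with a median gap of 1.07, and next in ERF5, where 59 were higher in replicate 2 (median of replicate 1 minus replicate 2, -0.68). In DEAR1, 63 genes were higher in replicate 1 with a median gap of 0.46, and in CRF2 59 with a median gap of 0.62. The arrays of WT at 22°C differed little, with medians of replicate 1 minus replicate 2 of -0.04 in the cold experiment and 0.06 in the lines' control. The root mean square SD of the 66 genes was 0.68 in ERF5, against 0.26 over all probe sets in the same arrays, and 0.52 against 0.26 in CRF2. In CRF3 it was 0.88 against 0.71, so the 2 CRF3 arrays differed widely over all probe sets too. In DEAR1 it was 0.41 against 0.38. In ERF5 replicate 1 the signals of petL and accD were 5.04 and 5.81, against 7.87 and 7.75 in replicate 2.

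**Figure D5:**
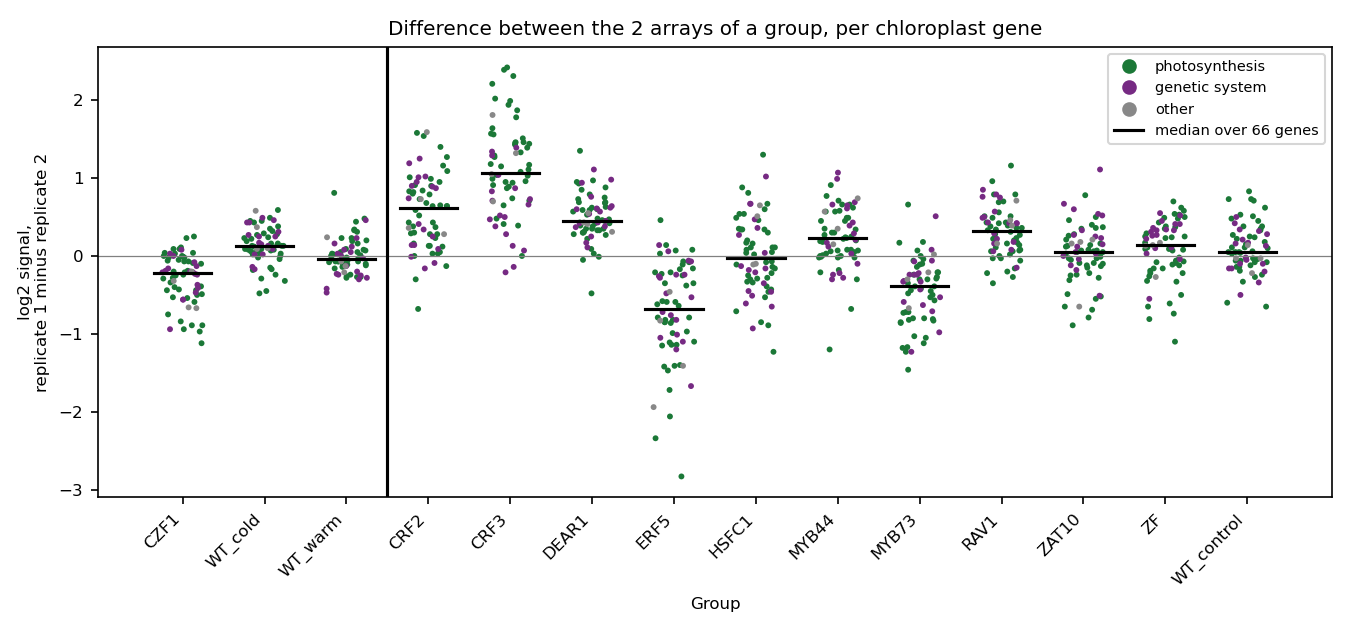
Each point is the log2 signal of 1 chloroplast gene in replicate 1 minus that in replicate 2 of the group, coloured by class, with the median over the 66 genes as a black line. The points of CRF3, CRF2 and DEAR1 lie mostly above 0 and those of ERF5 and MYB73 mostly below it.

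Pairs of genes transcribed together had a higher median correlation than other pairs, but not in every unit. The pairs were taken from 14 transcription units known from textbooks, and their group means were correlated over the 11 groups of lower array median, CRF3 included. Over the 88 pairs within a unit the median Pearson r was 0.69, from 0.15 to 0.97, and over the 2057 other pairs it was 0.49. The highest were psbD with psbC (0.97), which overlap on the genome, petL with petG (0.96) and ndhK with ndhJ (0.94). The unit of ndhC lay below the other pairs, with a median of 0.28, since ndhC had r = 0.28 with ndhK and 0.24 with ndhJ. Over all 14 groups the medians were 0.63 and 0.47, and those of 4 units were below 0.47, at 0.01 (ndhC), 0.27 (rpl23, 21 pairs), 0.36 (psbD) and 0.42 (psaA). These values are descriptions without a test, since the genes share arrays and units.

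The genes most like a given one over the 14 group means were not always of its own complex. For psbA they were ndhH (r = 0.81), ndhC (0.79) and psbB (0.75), and for rbcL psbD (0.70), psaA (0.64) and ndhJ (0.63). For psbD they were psbC (0.87), ycf4 (0.86) and petN (0.83). For rpoC2 all 3 belonged to the genetic system, namely rps19 (0.94), rpoA (0.90) and rpl22 (0.89), and so did those of rps16, namely rps3 (0.90), rps19 (0.82) and rpl22 (0.81). These values span the 2 sets of array medians, and over the 11 groups of lower median r was 0.54 for rpoC2 with rpoA and 0.37 for rps16 with rpl22. For accD they were cemA (0.83), petL (0.81) and psaA (0.81).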

How the data were processed

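An RNeasy kit gave the RNA, and a MessageAmp kit amplified and biotinylated it, per the labels' protocols. The values are log2 signals deposited by the authors, 1 column per array, and the submitters' processing notes name GCRMA and limma, with neither version nor role. The table's lowest value was 2.13, and signals near it are called the floor here. Some probe sets repeated a value of their own in many arrays, such as 2.16 for ndhF, 3.76 for petD and 4.95 for psaC. Of 22810 probe sets, 64 array controls were left out, and 13513 of the others name 1 gene. Group means of 28 arrays were fitted with limma 3.58.1 in R 4.3.3 (lmFit, eBayes) over the 15916 probe sets whose log2 signal exceeded 4 in at least 2 arrays, with Benjamini-Hochberg adjustment over all of them in each comparison (threshold 0.05).

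For MYB44 and MYB73, the titles give MYB4 and MYB7; groups follow the source names. Same-numbered arrays did not deviate together (correlations from -0.05 to 0.09), so numbers were not treated as pairs. Chloroplast genes were found through Entrez IDs in a RefSeq gene table, and no coordinates were taken from it, since no build is named. Mitochondrial genes were taken by annotation symbol. Per-array values are given for genes past the threshold in the cold, for the 5 largest changes a direction in a line, for 16 well-known genes, and for the highest- and lowest-mean gene of each class; other genes are given as values, ranges and counts. The genes, classes and lists were chosen with earlier results of these data known, and the transcription units, the sets of array medians and the split of arrays by the GAPDH difference after the values were seen. In simulated data for the cold comparison (15916 probe sets), the fit recovered 41% of log2 changes of 1 and 90% of those of 2, and made 8 false calls. The simulated noise was independent between probe sets. These figures therefore do not cover genes that move together between arrays, as the chloroplast genes did. The alternatives were fitting the 2 groups of a comparison alone, the spread without CRF3, no filter, quantile normalization, median centring, the replicate number as a block, the other WT, and leaving out each array. Precision is limited by having 2 arrays a group.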

Additional observations from a re-analysis of the deposited data

How the results depend on the processing

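Counts are of the 66 chloroplast genes past the adjusted threshold, and where the cause of a shift is not named it was not tested. In the cold, 9 in the reported fit became 27 with only the groups compared, 20 with the spread taken without CRF3, 14 against the other WT, and 2 to 4 without 1 array. In CRF3, 12 became 0 with only the groups compared, 5 with no filter (more probe sets tested), 45 against the other WT, and 0 to 44 without 1 array. In CZF1, 19 became 12 with no filter, 11 after median centring (5 higher, 6 lower, against 15 and 4), 0 against the other WT, and 9 to 11 without 1 array. In the comparison of the 2 WT groups at 22°C, 13 became 29 with only the groups compared, 7 after quantile normalization, 8 after median centring (3 higher, 5 lower, against 12 and 1), and 5 to 8 without 1 array. In HSFC1, 1 (higher) became 5 with the spread without CRF3 (3 higher, 2 lower) and 3 after quantile normalization (3 higher, 0 lower). Against the other WT it became 8 (0 higher, 8 lower). A fit of only the 2 groups also called 1 gene in HSFC1, which was not rpl32. The 14 calls in the cold against the other WT were 6 higher and 8 lower, against 1 and 8 in the reported fit. With the spread without CRF3, counts of 0 became 1 in ERF5, 1 in MYB44 and 2 in ZF. With only the groups compared they became 1 in ZAT10 and 1 in ZF, and after quantile normalization 1 in ERF5. Against the other WT, which lies in the other set of array medians, they became 11 in CRF2, 15 in DEAR1, 16 in ERF5, 8 in MYB44, 20 in MYB73, 6 in RAV1, 8 in ZAT10 and 6 in ZF. With the replicate number as a block, the count in ZF became 1, while the cold kept a count of 9 and CRF3 one of 12. The direction reversed against the other WT for rpoC2 (0.31) and rpoA (0.37) in the cold and for rpoC2 in CZF1 (-0.40). The difference between the median changes of the 2 classes kept its sign in all 13 comparisons with quantile normalization, with means in place of medians and with genes of mean signal over 6 only.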

Other observations

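A further 8 probe sets each matched 2 entries of the plastid genome and were left out of the counts above. Of these, 7 passed the limit for testing. In the cold 4 of the 7 fell and 0 rose, with a median of -1.15, against 13.1% and 14.1% of all probe sets. In CRF3 1 rose and 1 fell, with a median of -0.67, against 5.79% and 2.81%. One of the 7 also rose in each of MYB44, ZAT10, ZF, HSFC1 and CZF1 and in WT at 22°C of the cold experiment against the lines' control, and 0 fell in these. The first 3 of those lines had 0 of the 66 other chloroplast genes called.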
